A study of Mus musculus with 3 samples.

Results

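The genes described here are 30 genes of cholesterol and fatty acid synthesis, taken by symbol from the 27999 entries of the count tables of 3 mouse brain tumours. All 30 were found once in each table. They comprise 18 enzymes of the sterol branch, 8 enzymes of the fatty acid branch and 4 genes of regulation and transport. Droplet single-cell RNA sequencing of the RNA's 3′ end was done on GFP-positive cells sorted from microdissected, dissociated tumours. Each unique molecular identifier (UMI) stands for 1 captured transcript, so levels are given in CPM (the gene's UMIs as a share of all UMIs of that group of cells) with no scaling for gene length. The 3 tumours form 1 group and differ in age: tumours 1 and 4 came from mice of 150 and 149 days, tumour 2 from 1 of 106 days. All carry H3f3aK27M, PdgfraD842V and Trp53R270H, delivered to the brain by electroporation at postnatal day 1 or 2 with MADR constructs (mosaic analysis by dual recombinase-mediated cassette exchange). The mice were heterozygous for the reporter allele Gt(ROSA)26Sortm4(ACTB-tdTomato,-EGFP)Luo. There was no control genotype, so no effect of the altered genes can be measured. The labels name neither the promoter that drives the transgenes nor whether animals were pooled, and tumour, age and library cannot be told apart.

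Cholesterol is built from acetyl-CoA through mevalonate, farnesyl diphosphate, squalene and lanosterol. Fatty acids are built from the same precursor by carboxylation, chain synthesis, elongation and desaturation. The transcription factors SREBP-2 (Srebf2) and SREBP-1 (Srebf1) drive the genes of these branches when membrane sterol is low, and Insig1 holds their precursors in the endoplasmic reticulum. In the brain, oligodendrocytes need large amounts of both lipids for myelin, and most brain cholesterol is made locally.

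SREBPs bind sterol regulatory elements, usually beside sites for NF-Y and Sp1, so promoters were searched on both strands for the letters TCACNCCAC (a core of the sterol regulatory element), CCAAT (the NF-Y box) and GGGCGG (the Sp1 box). RefSeq promoters of GRCm38.p6, from 250 bases before to 50 after each start, covered 23 of the 30 genes. The first motif was found in 1 of 23 genes, Hmgcs1, and in 1.44% of the 27025 symbols of the table. CCAAT was found in 19 of 23 genes against 41.1% of symbols, and GGGCGG in 19 of 23 against 38.2%. A match is a run of letters and not a measured binding site. The 250 bases before the start are shown for Hmgcs1, the only gene with the first motif, and for Mvd, chosen after its values were seen because it passed the test in both class comparisons described further on. Capitals mark matches to any of the 3 motifs on either strand. They lie on mm10 at chr13:119690101-119690350 (plus strand) and chr8:122443423-122443672 (minus strand).
Hmgcs1: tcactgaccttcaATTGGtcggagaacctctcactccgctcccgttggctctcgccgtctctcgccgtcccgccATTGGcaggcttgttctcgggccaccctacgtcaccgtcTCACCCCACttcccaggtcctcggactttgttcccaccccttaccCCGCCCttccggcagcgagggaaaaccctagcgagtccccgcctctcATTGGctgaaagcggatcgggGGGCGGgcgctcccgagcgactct
Mvd: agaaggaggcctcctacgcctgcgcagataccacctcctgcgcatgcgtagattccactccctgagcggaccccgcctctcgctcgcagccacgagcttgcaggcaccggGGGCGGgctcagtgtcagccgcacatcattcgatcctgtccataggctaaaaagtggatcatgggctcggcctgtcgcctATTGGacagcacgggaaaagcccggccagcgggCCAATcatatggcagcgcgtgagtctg
The sterol motif of Hmgcs1 begins 137 bases before the start, between CCAAT-type matches at 176 and 45 bases. Mvd holds 2 CCAAT-type matches and 1 GC box in this stretch.

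The tables held 3386, 1632 and 4624 barcodes in tumours 1, 2 and 4, with 47120617, 15231673 and 53551127 UMIs. After filtering, 3361, 1548 and 4377 cells were clustered within each tumour, without the genes studied here, and clusters were named from marker lists. Tumours 1 and 2 shared 6 barcodes, tumours 1 and 4 shared 20, and tumours 2 and 4 shared 11. Cells resembling oligodendrocyte progenitor cells (OPC-like) were split into non-cycling cells (327, 192 and 1359) and cycling cells (865, 38 and 954). Non-cycling oligodendrocyte-like cells numbered 261 in tumour 2 and 141 in tumour 4, and none were named in tumour 1. Committed OPC-like cells (229) were named in tumour 2 alone, and microglia-like cells numbered 84, 327 and 57. All 12 oligodendrocyte markers reached 20 CPM in the oligodendrocyte-like sums, at a summed 85373 CPM in tumour 2 and 18468 CPM in tumour 4. The class of tumour 4 also kept OPC markers, at 2545 CPM against 1077 CPM in tumour 2. The OPC-like non-cycling sum of tumour 2 stood apart: its astrocyte markers summed to 1646 CPM, against 186 CPM in tumour 1 and 211 CPM in tumour 4. Its median mitochondrial share was 9.16% against 4.64% and 5.62%. The larger of its 2 clusters held 200 cells and was led by Igfbp2, Egr4 and Cxcl10, with no OPC marker among its 10 leading genes. Its OPC marker score was 4.71, close to its ependymal (4.35) and astrocyte (4.07) scores, so its name is uncertain. Comparisons with OPC-like cells were therefore also made without it.

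**Figure D1:**
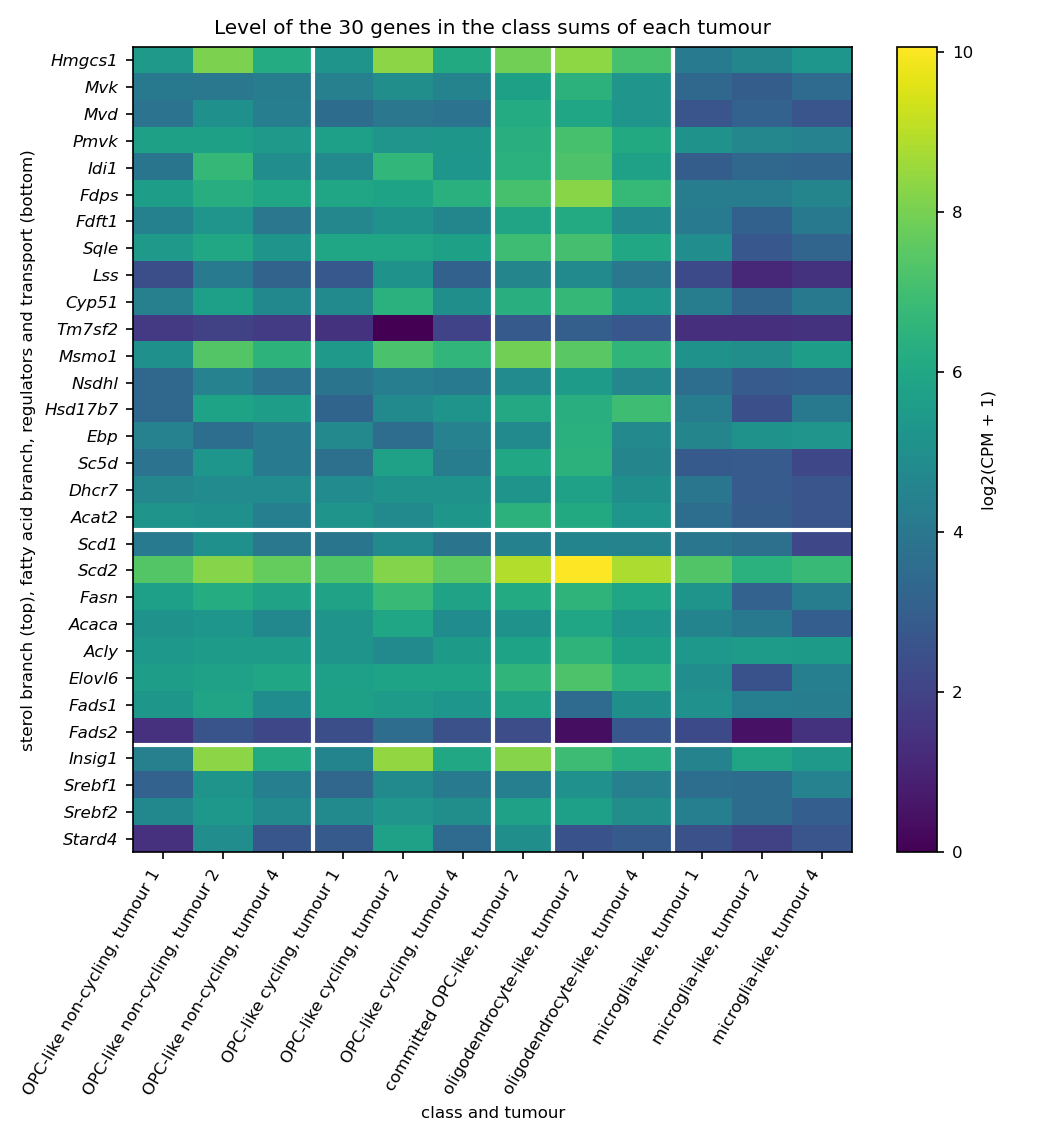
Level of each gene, as log2(CPM + 1) of summed UMIs (colour), in each class and tumour (columns), with genes in rows ordered by branch. Scd2 is the brightest fatty acid row, reaching 1070 CPM in the oligodendrocyte-like cells of tumour 2, and the microglia-like columns are darkest over most sterol rows.

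Neural cells (clusters named as, or with marker scores only for, OPC, committed OPC, oligodendrocyte, astrocyte, neuroblast, neuron or ependymal cells) numbered 3084, 1069 and 4296. Over all neural cells of a tumour, the sterol branch summed to 469 CPM (exact 95% Poisson interval 463 to 476) in tumour 1, 1445 CPM (1423 to 1468) in tumour 2 and 605 CPM (598 to 612) in tumour 4. The mean was 840 ± 529 CPM (SD, n = 3). The fatty acid branch summed to 397, 991 and 446 CPM, or 612 ± 330 CPM (SD, n = 3). Both sums were highest in tumour 2. The intervals cover counting error only, and 1 library per tumour gives no test between tumours. By mean level the leading genes were Scd2 (337 ± 267 CPM, SD, n = 3), Hmgcs1 (123 ± 115), Msmo1 (101 ± 66.4), Fdps (99.1 ± 61.0), Insig1 (98.7 ± 98.6), Elovl6 (67.5 ± 24.2), Sqle (65.6 ± 31.5) and Fasn (61.3 ± 13.3). Fads2 (3.27 CPM) and Tm7sf2 (3.32 CPM) were lowest.

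Over neural cells, tumour 2 was the highest tumour for 17 of the 17 sterol genes that reached 10 CPM in some tumour, and for 6 of 7 such fatty acid genes. Of all 9848 genes at that level, 48.4% were highest there and 14.7% were at least 2-fold above both other tumours. The 2-fold mark was passed by 9 of 17 sterol genes at that level, namely Hmgcs1, Mvk, Mvd, Idi1, Fdps, Fdft1, Lss, Cyp51 and Sc5d, by 1 of 7 fatty acid genes (Scd2) and by 2 of 4 regulation and transport genes (Insig1 and Stard4). Neural cells of tumour 2 also held the highest oligodendrocyte marker sum, 40802 CPM against 987 and 3946 CPM. The part of this in the tumour difference was not tested. Within non-cycling OPC-like cells, 5 of 17 sterol genes (Hmgcs1, Idi1, Lss, Cyp51 and Sc5d), 0 of 7 fatty acid genes and Insig1 and Stard4 passed the mark, against 13.6% of 9818 genes. Tumour 2 was highest for 14 of 17 sterol and 5 of 7 fatty acid genes in this class, against 47.2% of all genes. The OPC-like sterol sums were 418, 1076 and 560 CPM and the fatty acid sums 394, 608 and 437 CPM. In the smaller of the tumour 2 OPC-like clusters (84 cells, led by Ttr, Pdgfra and Ednrb), the sterol sum was 943 CPM and the fatty acid sum 601 CPM.

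Early enzymes of the sterol branch differed in this. Hmgcs1, which makes HMG-CoA, stood at 42.1, 272 and 72.2 CPM in the OPC-like cells of tumours 1, 2 and 4, so the intervals of tumour 2 (245 to 301) and of the others did not overlap. Idi1, the isopentenyl diphosphate isomerase, stood at 13.9, 104 and 29.5 CPM. Mvk, the mevalonate kinase, stood at 15.6, 15.2 and 17.96 CPM. Hmgcs1 and Idi1 were highest in tumour 2 within this class, and Mvk was not. Msmo1, a sterol demethylase, stood at 32.0, 167 and 91.0 CPM.

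Of the regulators, Insig1, the retention factor named above, stood at 19.6, 313 and 69.9 CPM in OPC-like cells, at 22.3, 341 and 62.1 CPM in cycling OPC-like cells, and at 119 and 76.4 CPM in the oligodendrocyte-like cells of tumours 2 and 4. In tumour 2 Insig1 was lower in oligodendrocyte-like than in OPC-like cells, with intervals that did not overlap (108 to 131 against 284 to 344), while in tumour 4 they did. Insig1 stood at 390 CPM in the larger OPC-like cluster of tumour 2, whose name is uncertain, and at 184 CPM in the smaller. These cluster values include cycling cells. Stard4, a carrier of cholesterol between membranes, stood at 1.73, 29.7 and 5.40 CPM in OPC-like cells and at 4.81 and 6.22 CPM in oligodendrocyte-like cells. With the larger OPC-like cluster of tumour 2 left out, its oligodendrocyte-like log2 fold change was 0.09 in place of −1.02. Srebf2 stood at 25.1, 39.9 and 26.1 CPM in OPC-like cells and at 50.9 and 29.99 CPM in oligodendrocyte-like cells. Srebf1 stood at 8.08, 35.5 and 19.3 CPM and at 33.4 and 19.8 CPM. Transcript levels of these factors do not measure their processing to active protein.

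Oligodendrocyte-like cells had higher levels of sterol enzymes than OPC-like cells of the same tumour. The test was edgeR's quasi-likelihood test on class sums with tumour as a block, with Benjamini-Hochberg adjustment over 12546 genes. All 18 sterol genes had a positive log2 fold change, with a median of 1.10 against −0.04 over all genes, and 5 passed. The fatty acid genes had a median of 0.56, with 6 of 8 positive and 1 passed. None of the 4 regulation and transport genes passed (median −0.08; 0 of 4 at an unadjusted p under 0.05, and 0 of 4 with DESeq2). Of all genes tested 6.18% were called, 4.55% higher and 1.63% lower. Class sums of 2 tumours enter this comparison, and its calls rest on the spread shared with the other classes: a fit of these 2 classes alone, and a fit without the tumour block, called 0 genes of any kind (1619 and 1794 at an unadjusted p under 0.05). Without tumour 1, which has no such cells, no gene of the 30 passed. Without tumour 2 or without tumour 4 only 1 oligodendrocyte-like sum was left, so effect sizes alone are given. The sterol median was 0.82 without tumour 2 and 1.43 without tumour 4, with 18 of 18 genes positive in both fits. The fatty acid median was 0.51 and 0.78. With the larger OPC-like cluster of tumour 2 left out, Mvk and Scd2 passed.

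The 5 sterol enzymes that passed were Mvk, Pmvk, Mvd and Fdps, which act before squalene, and Nsdhl, which acts after it. Hmgcs1, Idi1 and Acat2 also act before squalene and did not pass. Some later enzymes had similar fold changes without passing, among them Ebp (log2 1.64, edgeR adjusted p = 0.0956) and Sqle (1.28, edgeR adjusted p = 0.0785). No order along the pathway is read from the calls. Mvk (chr5:114444269-114460591, plus strand, GRCm38) rose from 15.2 to 87.2 CPM in tumour 2 and from 17.96 to 36.8 CPM in tumour 4, a log2 fold change of 1.83 (SE 0.35, edgeR adjusted p = 0.0132). Pmvk (chr3:89454541-89469013, plus strand), which adds the second phosphate to mevalonate, rose from 52.2 to 138 CPM and from 40.9 to 69.0 CPM, by 1.21 (SE 0.29, edgeR adjusted p = 0.0352). Mvd (chr8:122433601-122443422, minus strand), which decarboxylates the product, rose from 31.9 to 61.7 CPM and from 19.0 to 36.8 CPM, by 1.10 (SE 0.27, edgeR adjusted p = 0.0374). In both tumours the class intervals of these 3 genes were apart. Fdps (chr3:89093588-89101959, minus strand), which makes farnesyl diphosphate, rose from 76.1 to 308 CPM and from 61.3 to 106 CPM, by 1.64 (SE 0.41, edgeR adjusted p = 0.0405). Nsdhl (chrX:72918557-72958514, plus strand), which acts late in demethylation of lanosterol, rose from 21.02 to 46.4 CPM and from 13.3 to 24.3 CPM, by 1.27 (SE 0.31, edgeR adjusted p = 0.0402). The 3′ end of Mvd is overlapped by an annotated gene on the other strand (Gm20388) and that of Fdps by one on the same strand (Gm43738), so their values are uncertain in so far as such reads were counted for either gene.

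The first enzyme of the list did not pass. Hmgcs1 stood at 325 and 140 CPM in oligodendrocyte-like cells, a log2 fold change of 0.68 (edgeR adjusted p = 0.32), against 272 and 72.2 CPM in OPC-like cells. The larger OPC-like cluster of tumour 2, whose name is uncertain, stood at 325 CPM and the smaller at 185 CPM, cycling cells included. Other sterol genes that did not pass had log2 fold changes of 0.36 (Msmo1) to 1.64 (Ebp). Sqle, the squalene epoxidase, stood at 136 and 65.1 CPM against 65.2 and 35.6 CPM in OPC-like cells (1.28, edgeR adjusted p = 0.0785).

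In the fatty acid branch, Scd2 (chr19:44293674-44306864, plus strand), a stearoyl-CoA desaturase abundant in brain, rose from 300.1 to 1070 CPM in tumour 2 and from 203 to 458 CPM in tumour 4, a log2 fold change of 1.75 (SE 0.33, edgeR adjusted p = 0.0123). Its share of the fatty acid branch sum went from 49.3% to 71.3% in tumour 2 and from 46.5% to 60.9% in tumour 4. Elovl6, an elongase of long-chain fatty acids, stood at 153 and 85.4 CPM against 53.6 and 60.1 CPM (1.32, edgeR adjusted p = 0.0894). Fasn, the fatty acid synthase, stood at 92.0 and 59.97 CPM against 73.9 and 54.6 CPM (0.46, edgeR adjusted p = 0.50). Fads1, which desaturates polyunsaturated fatty acids, stood at 10.5 and 31.7 CPM against 58.0 and 28.9 CPM (−0.87, edgeR adjusted p = 0.26), lower in tumour 2 and not in tumour 4. Scd1 and Scd2 are close paralogs. How reads matching both were counted was not examined, which leaves both values uncertain to that extent.

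**Figure D2:**
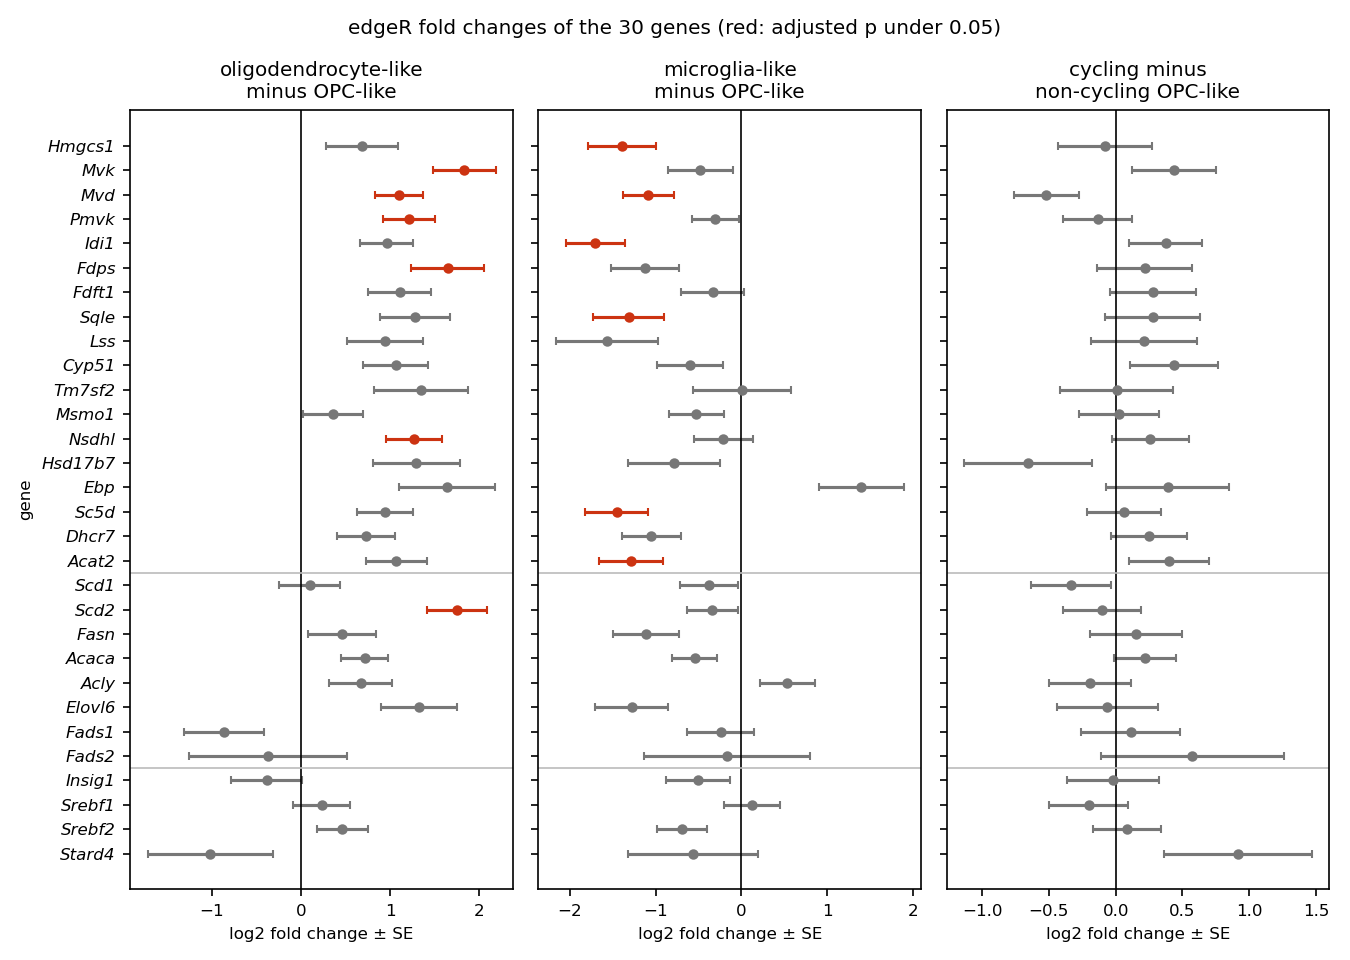
Log2 fold changes with standard errors from edgeR (x axis) for the 30 genes (rows) in 3 comparisons, with red for adjusted p under 0.05. All 18 sterol genes lie right of 0 in the oligodendrocyte-like panel, 16 of 18 lie left of it in the microglia-like panel, and no point is red in the cycling panel.

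Shares of cells with a UMI were taken after thinning each cell to 2000 UMIs, which no cell fell short of, and genes differed in them. Scd2 had a UMI in 73.6% of oligodendrocyte-like cells of tumour 2 (exact binomial 95% interval 67.8 to 78.8) and 57.4% in tumour 4 (48.8 to 65.7). In OPC-like cells the shares were 28.7%, 44.8% and 28.6% in tumours 1, 2 and 4, and in microglia-like cells 14.3%, 15.3% and 24.6%. Unthinned, the Scd2 shares were 92.3% and 89.4% in oligodendrocyte-like cells, 78.0%, 74.5% and 73.2% in OPC-like cells, and 67.9%, 37.6% and 54.4% in microglia-like cells. Median depths were 12775 and 10934 UMIs in the oligodendrocyte-like cells and 5952.5 to 10096 UMIs in the OPC-like cells. Hmgcs1 had a UMI in 27.6% and 20.6% of oligodendrocyte-like cells after thinning and 68.2% and 58.9% before. In OPC-like cells its shares were 11.0%, 34.4% and 14.2% after thinning and 32.4%, 62.5% and 45.8% before. After thinning, Hmgcs1 was thus in a smaller share of oligodendrocyte-like than of OPC-like cells in tumour 2, with overlapping intervals (22.3 to 33.4 against 27.7 to 41.6). These OPC-like cells include the larger cluster of uncertain name. Hmgcs1 stood at 325 CPM in that cluster and at 185 CPM in the smaller one, cycling cells included. Its shares without the larger cluster were not taken. Fdps had a UMI in 32.2% of oligodendrocyte-like against 10.4% of OPC-like cells in tumour 2. In tumour 4 its shares, 12.1% (7.18 to 18.6) and 10.7% (9.15 to 12.5), overlapped. Unthinned, the Fdps shares were 71.3% and 28.6% in tumour 2 and 48.9% and 39.1% in tumour 4. No class here is one that lacks these genes, so the shares are not read against a background of free RNA.

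Of a wider list of 50 lipid pathway genes, 44 were tested, and 8 passed higher and 0 lower in oligodendrocyte-like cells (median log2 fold change 0.58), against 4.55% and 1.63% of all genes. Fa2h, which hydroxylates the fatty acids of myelin galactolipids, stood at 18.1 and 9.89 CPM in the OPC-like cells of tumours 2 and 4 and at 320 and 86.0 CPM in oligodendrocyte-like cells (log2 3.93, edgeR adjusted p = 0.00106). Elovl7, an elongase of very long fatty acids, went from 34.8 to 428 CPM and from 35.2 to 153 CPM (2.96, edgeR adjusted p = 0.00106). Elovl1 rose by 2.65, Cers2, a ceramide synthase for very long chains, by 2.43, and Acsl1, an acyl-CoA synthetase, by 2.01. Npc1, which exports cholesterol from lysosomes, rose by 1.41 and Slc25a1, the mitochondrial citrate carrier, by 1.04.

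Committed OPC-like cells of tumour 2 lay between the other classes for the sterol sum, at 1501 CPM (1447 to 1556), against 1076 CPM in OPC-like and 2009 CPM in oligodendrocyte-like cells. The class came from 1 tumour and has no test. Msmo1 was at 242 CPM (221 to 265), above the 178 CPM (164 to 192) of oligodendrocyte-like cells. Insig1, at 298 CPM, was near the level of the pooled OPC-like cells and above the 184 CPM of the smaller OPC-like cluster. Stard4 stood at 31.5 CPM against 4.81 CPM in oligodendrocyte-like cells. Scd2 stood at 484 CPM and Fdps at 138 CPM, in both cases between the OPC-like and the oligodendrocyte-like level.

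**Figure D3:**
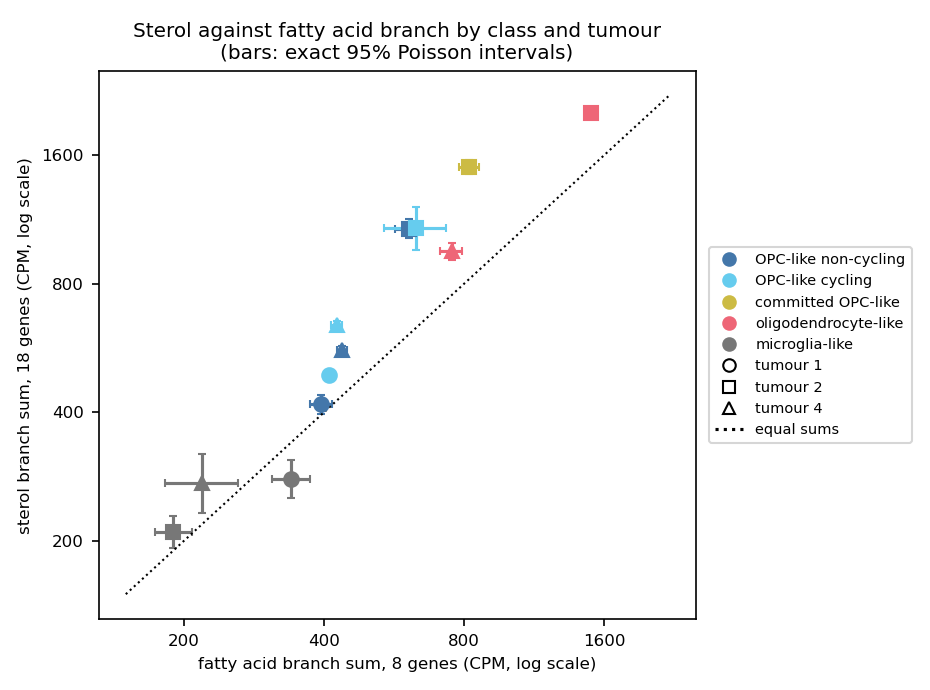
Sterol branch sum (y axis, CPM, log scale) against fatty acid branch sum (x axis, CPM, log scale) for each class (colour) and tumour (shape), with exact 95% Poisson intervals, and a dotted line where both are equal. Both sums rise together from microglia-like to oligodendrocyte-like cells, and the microglia-like point of tumour 1 alone lies below the line.

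The balance of the branches was given by a log2 ratio. Over neural cells the log2 ratio of the sterol to the fatty acid sum was 0.24, 0.54 and 0.44 in tumours 1, 2 and 4, or 0.41 ± 0.15 (SD, n = 3). In OPC-like cells it was 0.09, 0.82 and 0.36. From OPC-like to oligodendrocyte-like cells the sterol sum was 1.87-fold higher in tumour 2 and 1.70-fold in tumour 4, and the fatty acid sum 2.47-fold and 1.72-fold. The ratio was 0.82 in OPC-like and 0.42 in oligodendrocyte-like cells of tumour 2, and 0.36 and 0.34 in tumour 4. In tumour 2 it was 0.88 in the larger OPC-like cluster, whose name is uncertain, and 0.65 in the smaller. The 3 oligodendrocyte-like clusters of tumour 2 stood at 0.89, 0.06 and 0.47, so not all lay below the OPC-like clusters. These cluster values include cycling cells. With Scd2 left out the ratios of the class sums were 1.80 and 2.22 in tumour 2, where the order turned. In tumour 4 they were 1.26 and 1.70. The tumour 4 ratios with Scd2, 0.36 and 0.34, lay within counting error of each other (SE 0.02 and 0.05). The difference between the branches was not tested.

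Between cycling and non-cycling OPC-like cells none of the 30 genes passed (edgeR; 0 of 30 at an unadjusted p under 0.05, and 0 of 30 with DESeq2). Of all genes tested 3.0% were called, 2.97% higher and 0.0239% lower. The median log2 fold changes were 0.23 for the sterol genes and 0.02 for the fatty acid genes. Over all neural cells, in place of the OPC-like class, they were −0.20 and −0.17. The largest was for Stard4 (0.92, SE 0.55). Stard4 passed when tumour 2, which has 38 cycling cells, was left out, in a fit of these classes alone, and over all neural cells. Sterol sums were 490, 1080 and 642 CPM in cycling cells. A p over the threshold does not show that the levels are alike.

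Microglia-like cells had lower levels of sterol enzymes. Of the 18 sterol genes 6 passed lower and 0 higher, 16 were negative, and the median log2 fold change was −0.92 against −0.08 over all genes, of which 18.9% were called, 13.7% higher and 5.24% lower. No fatty acid gene passed (0 of 8, median −0.36; 2 of 8 at an unadjusted p under 0.05, and 1 of 8, Elovl6, with DESeq2), and none of the 4 regulation and transport genes did. Idi1 stood at 6.89, 9.25 and 8.75 CPM in microglia-like cells of tumours 1, 2 and 4 (log2 −1.70, edgeR adjusted p = 0.00538). Sc5d, a late desaturase, stood at 6.12, 6.43 and 3.50 CPM (−1.46, edgeR adjusted p = 0.0187) against 13.3, 37.7 and 17.2 CPM in OPC-like cells. Hmgcs1 (−1.39), Sqle (−1.31), Acat2 (−1.29) and Mvd (−1.08) passed with edgeR adjusted p between 0.0280 and 0.0455. Acat2, the cytosolic thiolase, stood at 11.5, 6.84 and 5.25 CPM against 35.5, 31.9 and 19.5 CPM. Sqle stood at 29.8, 5.63 and 8.75 CPM, highest in tumour 1. Ebp went the other way without passing, at 23.0, 33.8 and 36.8 CPM against 20.8, 11.6 and 16.6 CPM (1.40, edgeR adjusted p = 0.0727). In tumours 1 and 4 the microglia-like cells carried OPC markers (1262 and 1089 CPM, against 111 CPM in tumour 2); their part in these levels was not tested. Without tumour 2, Mvd, Fdps and Hmgcs1 were the sterol genes that passed, without tumour 4 Idi1 and Hmgcs1, and without tumour 1 Sc5d, Idi1, Sqle, Lss and Hsd17b7 passed lower and Ebp higher. Without the larger OPC-like cluster of tumour 2, Mvd, Sc5d, Idi1, Hmgcs1 and Acat2 passed. Without the tumour block 0 of the 30 passed.

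**Figure D4:**
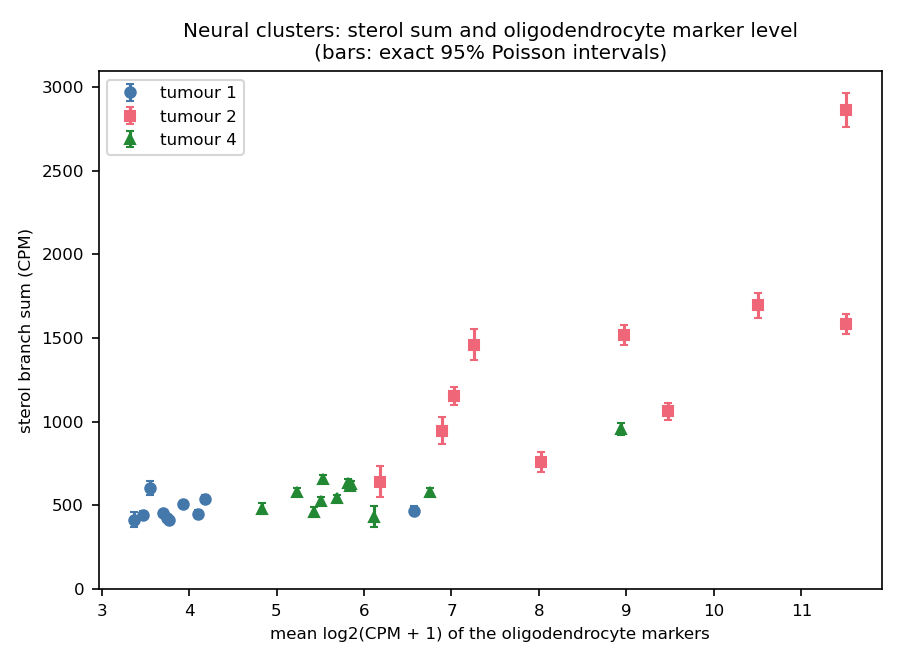
Sterol branch sum (y axis, CPM) of each neural cluster of at least 20 cells against its mean log2(CPM + 1) of the oligodendrocyte markers (x axis), by tumour, with exact 95% Poisson intervals. The 10 clusters of tumour 1 stay between 412 and 602 CPM, and a cluster of 65 oligodendrocyte-like cells of tumour 2 is highest at 2860 CPM.

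Within tumours, clusters differed most in tumour 2. Its 10 neural clusters ranged from 638 to 2860 CPM in the sterol sum, those of tumour 4 (12 clusters) from 431 to 956 CPM, and those of tumour 1 (10 clusters) from 412 to 602 CPM. As a description across clusters of 1 library each, Pearson's r between the log2 sterol sum and the oligodendrocyte marker level was 0.08, 0.77 and 0.73 in tumours 1, 2 and 4. It was −0.02, −0.17 and 0.19 with log2 Insig1. Between the fatty acid sum and the oligodendrocyte marker level, r was 0.66, 0.88 and 0.76, above the sterol values in each tumour. The cluster of 65 cells that was highest was led by Tmem141, Rras2, Il23a and Tspan2, with 1368 CPM of Scd2.

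No cluster was named astrocyte-like in the main classes, so that comparison could not be made. At a finer clustering resolution a cluster of 34 cells in tumour 1 and 1 of 67 cells in tumour 2 took this name, both with Sparcl1, Mlc1 and Slc4a4 among their leading genes. In tumour 1 it had a sterol sum of 696 CPM (616 to 783) and a fatty acid sum of 1376 CPM (1263 to 1497), a log2 ratio of −0.98, with Scd2 at 949.5 CPM and Fads1 at 124 CPM. In tumour 2 the sums were 967 and 711 CPM, a ratio of 0.44, with Fads1 at 82.0 CPM and Insig1 at 280.3 CPM. The clusters thus differed in the order of the branches, and no test was made.

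The other genes, not named so far for their class values, were Fdft1, Lss, Cyp51, Tm7sf2, Hsd17b7, Dhcr7, Scd1, Acaca, Acly and Fads2. None passed in any of the 3 comparisons. Their mean levels over neural cells ran from 3.27 CPM (Fads2) to 50.3 CPM (Acly). Tm7sf2 had 0 UMIs in the cycling OPC-like cells of tumour 2, where 3 counts correspond to 11.3 CPM. The 3′ ends of Cyp51, Fdft1, Lss and Srebf1 are overlapped by genes on the other strand.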

How the data were processed

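Each tumour has a deposited table of UMI counts (whole numbers, genes by cell barcodes) and a normalized one, not used here. Per the submitters' processing notes, STAR 2.5.1, Cell Ranger 1.3.0 and mm10 were used. Barcodes under 500 detected genes or over 20% mitochondrial UMIs were left out. Each tumour was clustered in scanpy 1.11.5 (2000 variable genes, 30 components, 15 neighbours, Leiden resolution 1) without the 30 genes, the wider list or the cycling genes. Cells with over 10% haemoglobin UMIs were left out of cluster profiles. Clusters were named from 16 marker lists: a class needed a score of at least 2 (mean log2(CPM + 1) above the lowest cluster) and 60% of its markers at 20 CPM. Clusters stayed unnamed with mixed or close scores or with leading genes of another class. The members and lists were chosen with earlier results of these data known. The naming limits were revised after marker levels had been seen. The rule that clusters under 20 cells stay unnamed was added after levels and tests of the 30 genes had been seen; naming them gave 777, 2426 and 378 calls for oligodendrocyte-like, microglia-like and cycling cells in place of 775, 2377 and 376. Scrublet called 0, 3 and 0 doublets, too few to trust, so its calls were not used. Cells thinned to 2000 UMIs were cycling at 5 or more UMIs of 53 cycling genes and non-cycling at 1 or fewer. Counts summed per tumour and class (at least 20 cells) were tested with edgeR 4.0.16 (TMM, filterByExpr, quasi-likelihood test) in 1 joint fit with tumour as a block, since sums of a tumour come from the same library, with Benjamini-Hochberg adjustment at 0.05. Pearson's r of deviations from the class means, for the same tumour in cycling and non-cycling OPC-like sums, was 0.88, 0.81 and 0.83. DESeq2 1.42.0 was an alternative. The SE is the log2 fold change divided by the square root of the F statistic. Named genes were those that passed, the 8 highest over neural cells and the regulators. P-values set each class difference against the remaining variation of class sums in these 3 samples, pooled over the classes in the joint fit. The oligodendrocyte-like class enters from tumours 2 and 4 only. Differences between the tumours themselves are taken out by the block. A gene of the wider list that passed is not reported here.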

Additional observations from a re-analysis of the deposited data

How the results depend on the processing

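For the class calls, counts are of all genes at an edgeR adjusted p under 0.05. Oligodendrocyte-like calls (775) became 1586 with no filter on low counts, 0 in the separate fit, 0 with no replicate block, 233 at resolution 0.5, 1708 at resolution 2 and 1794 with lipid and cycling genes kept in clustering; leaving out 1 tumour gave 282 to 1042. Alternatives chosen after seeing the data gave 411 without the larger OPC-like cluster of tumour 2 and 1654 without the highest Scrublet scores. Microglia-like calls (2377) became 1479 in the separate fit, 1117 with no replicate block and 1390 at resolution 0.5, and 1299 to 2364 without 1 tumour. Cycling calls (376) became 1677 in the separate fit, 153 with no replicate block, 213 at resolution 0.5 and 647 over all neural cells (added after seeing the data), and 113 to 862 without 1 tumour. The cause of these moves was not tested, except that the separate oligodendrocyte-like fit has few samples. The share of oligodendrocyte-like calls that were higher was 73.7%, and 75.6% with DESeq2 size factors. It was 56.1% with no filter on low counts, 58.8% at resolution 2, 58.5% without the highest Scrublet scores and 86.1% without the larger OPC-like cluster of tumour 2. Mean sums over the remaining tumours ran from 537 to 1025 CPM (sterol) and 422 to 719 CPM (fatty acid), and the log2 ratio from 0.34 to 0.49. Genes that passed kept their sign in the alternatives run. Of those that did not pass, 7 of the 30 changed sign in some alternative in the oligodendrocyte-like and 9 in the microglia-like comparison. More of the 30 did so in the cycling comparison, among them Msmo1 in 10 of 19 alternatives, Fasn in 8 of 19 and Tm7sf2 in 8 of 17. Without tumour 2 the oligodendrocyte-like log2 fold change was 0.14 for Fads1, 0.21 for Insig1 and 0.31 for Stard4, and that of Msmo1 was −0.09 with thinned cells. Scd2 kept its call in 14 of 18, Mvk in 13, Fdps in 11, Pmvk in 10, Mvd in 7 and Nsdhl in 6. The astrocyte-like comparison had no class in the main setting, so its alternatives were not run. Depth limits the low genes: the cycling sum of tumour 2 held 266656 UMIs.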

Other observations

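Of 44 genes of the wider pathway list tested, 9 passed higher and 5 lower in microglia-like than in OPC-like cells, where 13.7% of all genes were called higher and 5.24% lower. These genes were named after their values were seen, and the 9 form no list that was tested. The higher ones were Mylip (log2 5.17), Npc2 (3.27), a lysosomal cholesterol carrier, Abca1 (3.05) and Abcg1 (2.29), sterol exporters, Soat1 (1.95), which esterifies cholesterol, Sptlc2 (1.63), Hacd2 (1.56), Acsl5 (1.23) and Acsl4 (1.07). The last 4 belong to sphingolipid synthesis, fatty acid elongation and fatty acid activation. Abca1 stood at 73.4, 148 and 130 CPM in microglia-like cells of tumours 1, 2 and 4 against 9.81, 85.5 and 9.50 CPM in OPC-like cells. Mylip, which targets the LDL receptor for breakdown, stood at 22.2, 56.3 and 42.0 CPM against 0.577, 7.25 and 0.781 CPM, of which the first rests on 2 UMIs. The lower ones were Elovl2, Elovl4, Hacd1, Acss2 and Me1, with log2 fold changes of −3.17 to −1.24.

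In cycling OPC-like cells Lbr, a sterol reductase of the nuclear envelope, was the only gene of the wider list that passed (log2 1.66, edgeR adjusted p = 0.00474), at 23.0, 48.8 and 31.3 CPM against 8.08, 9.42 and 10.8 CPM. This is 1 of 44 genes tested, where 3.0% of all genes were called.

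A cluster of 104 cells in tumour 1 that stayed unnamed and is not among the neural clusters above, led by Sparcl1, Fabp7, Rgs5 and Aqp4, had a fatty acid sum of 959 CPM and a sterol sum of 610 CPM, a log2 ratio of −0.65.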
